A study of Mus musculus with 18 samples.

Results

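The lesions of a mouse model of colitis-associated cancer were followed in the order of their grade and, within high grade dysplasia, of their week, from low grade dysplasia to carcinoma. Of the 18 arrays in all, the 12 that hold lesion RNA were used, 3 for each of 4 groups ranked 1 to 4, and the 3 arrays of inflamed mucosa and 3 of normal mucosa entered no trend. In rank order the groups were low grade dysplasia (LGD) at 4 weeks (day 28), high grade dysplasia (HGD) at 6 weeks (day 42), HGD with active inflammation at 8 weeks (day 56) and adenocarcinoma at 20 weeks (day 140). All lesions came from male ICR mice, an outbred stock, that were 6 weeks old at the start and received azoxymethane (AOM), a carcinogen, at 10 mg/kg, and then drank dextran sulphate sodium (DSS), a detergent-like polymer that damages the gut lining and causes colitis. The LGD mice had received 1 DSS cycle at 2%, the HGD mice at 6 weeks a further cycle at 1.5%, and the HGD mice at 8 weeks and the carcinoma mice a further cycle at 1.5%. Lesions were taken 14, 9, 2 and 86 days after the last DSS day in rank order. Normal mucosa came from mice given saline and water, on day 14. Rank, age and time since AOM move together in this design. The number of DSS cycles rises up to HGD at 8 weeks and is the same in carcinoma, and the time since the last DSS day differs between all groups. The parts of these cannot be told apart.

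Colorectal tumours arise when crypt cells escape the limits on Wnt signalling and go on dividing in place of maturing into absorptive colonocytes and mucus-secreting goblet cells. Dividing cells switch on a shared set of genes for copying DNA and for separating chromosomes, many of which carry paired short promoter elements, the CHR and the CCAAT box. The p53 pathway restrains such cells. Colonic lesions also hold stroma, vessels and immune cells, whose RNA is measured together with that of the epithelium.

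Expression was measured on Affymetrix whole-genome arrays, 1 array per sample, and levels are given as log2(signal + 16), where the signal is the deposited intensity. Array medians lay between 55.7 and 57.8 signal units. The arrays of a group differed among themselves, with a median standard deviation (SD) over genes of 0.191 in LGD, 0.133 in HGD at 6 weeks, 0.207 in HGD at 8 weeks and 0.143 in carcinoma. Some lesion arrays stood apart. LGD replicate 2 had a 3 prime to 5 prime log2 ratio of 1.63 for the Gapdh control probes, a sign of shortened RNA, while the other arrays lay between -0.08 and 0.15; its part in the results was not tested beyond leaving it out. LGD replicate 3 and HGD 8 weeks replicate 1 had Wnt target levels close to those of normal mucosa: the mean of 23 targets, relative to the 12 lesion arrays, was -1.50 and -1.82 in them and ran from -0.48 to 1.26 in the other lesion arrays, with -1.76 to -1.68 in normal mucosa. HGD 8 weeks replicates 1 and 2 lay at opposite ends of the first principal component, which held 33.6% of the variance (34.2 and -54.6). The main counts are given with and without these arrays.

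The trend asks which genes move with lesion rank. For each of 12511 genes, a slope in log2 units per rank step was estimated with limma from the 4 group means, and p-values were adjusted over all genes by the Benjamini-Hochberg method, with a threshold of 0.05. No gene passed: 0 genes were called higher with rank (0.0%) and 0 lower (0.0%), and the smallest adjusted p was 0.297. At an unadjusted p under 0.05 there were 865 genes (6.91%), of which 298 had a slope above 0 (2.38%) and 567 a slope below 0 (4.53%). After quantile normalization this split was 371 above and 468 below 0. Of all slopes 43.6% were above 0 and 56.4% below, the median slope was -0.01 and the median standard error (SE) 0.051. In 391 genes (3.13%) each group mean lay above the one before, and in 640 (5.12%) each lay below the one before. Such stepwise means together with an unadjusted p under 0.05 were seen in 95 genes upward (0.759%) and 175 downward (1.4%). That total of 270 was 169 without carcinoma replicate 3, 171 without HGD 8 weeks replicate 3, 449 (143 upward and 306 downward) without HGD 8 weeks replicate 1 and 418 (124 and 294) without LGD replicate 3 and HGD 8 weeks replicate 1. For 0 genes in either direction did every array of a group lie beyond every array of the group before it. At the ends of the series, all 3 carcinoma arrays lay above all 3 LGD arrays for 762 genes (6.09%) and below them for 1312 (10.5%). The carcinoma against LGD contrast in the same fit also called 0 genes, with a smallest adjusted p of 0.101. At an unadjusted p under 0.05, 441 genes were higher (3.52%) and 791 lower (6.32%) in carcinoma, and these were 869 and 1122 without LGD replicate 3 and HGD 8 weeks replicate 1, 301 and 516 without carcinoma replicate 1 and 300 and 498 without carcinoma replicate 3. None of the genes and lists described from here on therefore passed the adjusted test, and unadjusted counts are a description. Leaving out LGD replicate 3 and HGD 8 weeks replicate 1 together gave 0 calls as well, a smallest adjusted p of 0.116, and 701 genes higher and 899 lower at an unadjusted p under 0.05. Leaving out any single array gave 0 calls and between 557 (without carcinoma replicate 3) and 1424 genes (without HGD 8 weeks replicate 1) at that unadjusted level. Without LGD replicate 2 there were 264 higher and 377 lower, with a smallest adjusted p of 0.921. Stepwise genes among them were 69 upward and 118 downward, and carcinoma against LGD had 380 higher and 533 lower. Without HGD 8 weeks replicate 2 the trend had 326 higher and 640 lower, with a smallest adjusted p of 0.0583. Stepwise genes were then 79 upward and 205 downward, and carcinoma against LGD had 543 higher and 882 lower. The carcinoma against LGD contrast called 1 gene without LGD replicate 3, with or without HGD 8 weeks replicate 1, 1 without carcinoma replicate 1 and 2 without HGD 8 weeks replicate 2.

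**Figure D1:**
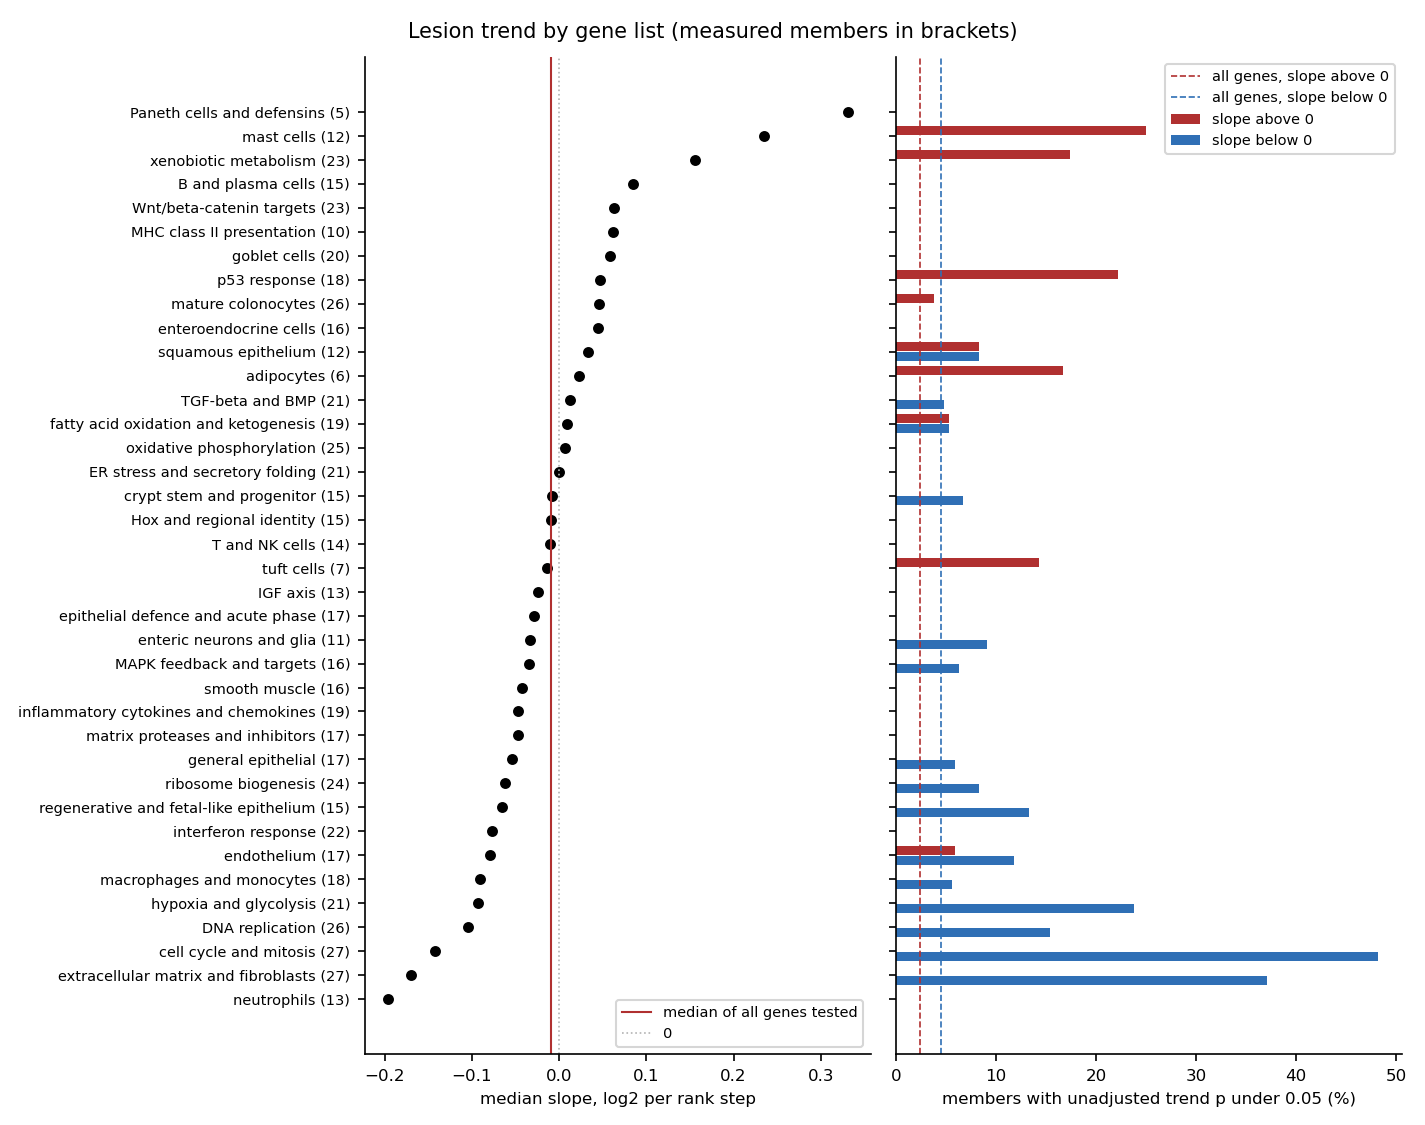
Left, the median slope (log2 per rank step) of the measured members of 38 gene lists, with the median of all genes tested as a red line. Right, the percentage of members with an unadjusted trend p under 0.05, slopes above 0 in red and below 0 in blue, with the percentages over all genes as dashed lines (2.38% above and 4.53% below 0); the bar of cell cycle and mitosis genes reaches the farthest.

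Genes of mitosis had lower group means in carcinoma than in LGD. Of 27 measured cell cycle and mitosis genes, 26 had a slope below 0, with a median of -0.14 log2 per rank step against -0.01 over all genes, and 13 of the 27 had an unadjusted p under 0.05, where 4.53% of all genes did in that direction. Each group mean lay below the one before in 14 of 27, against 5.12% of all genes. In 20 of 27, all 3 carcinoma arrays lay below all 3 LGD arrays, against 10.5% of all genes. The steps were uneven, with a median of -0.09 from LGD to HGD at 6 weeks, -0.05 to HGD at 8 weeks and -0.25 to carcinoma. In bulk tissue, fewer dividing cells and less RNA per dividing cell cannot be told apart.

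Prc1, whose protein bundles the microtubules of the spindle midzone when a cell divides, had the lowest slope of the list. Its level was 9.34, 9.44 and 8.91 in LGD, 9.24, 9.19 and 8.94 in HGD at 6 weeks, 9.20, 8.91 and 8.89 in HGD at 8 weeks and 8.72, 8.52 and 8.42 in carcinoma. The carcinoma arrays lay below all the other lesion arrays, and the first 3 groups overlapped. The slope was -0.21 (95% interval -0.33 to -0.10, adjusted p = 0.629), and the other probe set of the gene had -0.16. Anln encodes anillin, a scaffold of the contractile ring that pinches dividing cells apart. It had 8.55, 8.67 and 8.12 in LGD, 8.38, 8.32 and 8.09 in HGD at 6 weeks, 8.21, 8.14 and 7.89 in HGD at 8 weeks and 8.07, 7.76 and 7.67 in carcinoma. Neighbouring groups overlapped while the ends did not, and the slope was -0.20 (95% interval -0.32 to -0.08, adjusted p = 0.7). Cenpe, a kinesin motor that attaches chromosomes to the spindle, had group means of 7.36 ± 0.13, 7.14 ± 0.10, 7.09 ± 0.21 and 6.86 ± 0.15 in rank order (SD, n = 3 each). Its slope was -0.15 (95% interval -0.25 to -0.06). Bub1b, of the spindle checkpoint, had a slope of -0.17, the topoisomerase gene Top2a -0.18 and the mitotic kinase gene Plk1 -0.16. Foxm1, which encodes a transcription factor of mitotic genes, was the one member with a slope above 0, at 0.04. Outside the list, Ncapg, a subunit of the condensin complex that compacts chromosomes, had 7.08, 7.07 and 7.10 in LGD, 6.94, 6.74 and 7.05 in HGD at 6 weeks, 7.14, 6.90 and 6.49 in HGD at 8 weeks and 6.34, 6.26 and 6.43 in carcinoma. Its carcinoma arrays lay below all other lesion arrays (slope -0.23, 95% interval -0.33 to -0.12, adjusted p = 0.535). Ccnf, which encodes cyclin F, a ubiquitin ligase subunit, had a slope of -0.20 (95% interval -0.29 to -0.10). Mki67, the common proliferation marker, had stepwise means of 10.36, 10.07, 10.05 and 10.03, but its slope of -0.10 had an interval that held 0 (-0.25 to 0.04). Prc1, Ncapg and Ccnf were taken by the rule for naming genes, and the other list members here, Mki67 aside, were chosen after their values were seen.

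The promoters of Prc1, Anln and Cenpe are shown because these were the stepwise lower members of the mitosis list with the smallest trend p. At least 1 of the 2 elements that many mitotic genes carry was found in every promoter shown. Each runs from 250 bases before to 50 bases after the start of the gene in RefSeq (GRCm38.p6), 5′ to 3′ on the gene's strand, and capitals mark TTTGAA (the core of the CHR) and CCAAT on either strand, that is also TTCAAA and ATTGG.
Prc1, chr7:80294201-80294500, plus strand: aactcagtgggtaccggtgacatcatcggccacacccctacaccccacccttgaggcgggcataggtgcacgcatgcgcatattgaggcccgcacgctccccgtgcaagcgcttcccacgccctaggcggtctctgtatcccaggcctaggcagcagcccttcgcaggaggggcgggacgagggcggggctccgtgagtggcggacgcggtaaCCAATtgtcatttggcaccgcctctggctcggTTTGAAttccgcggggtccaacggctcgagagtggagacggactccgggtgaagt
Anln, chr9:22389157-22389456, minus strand: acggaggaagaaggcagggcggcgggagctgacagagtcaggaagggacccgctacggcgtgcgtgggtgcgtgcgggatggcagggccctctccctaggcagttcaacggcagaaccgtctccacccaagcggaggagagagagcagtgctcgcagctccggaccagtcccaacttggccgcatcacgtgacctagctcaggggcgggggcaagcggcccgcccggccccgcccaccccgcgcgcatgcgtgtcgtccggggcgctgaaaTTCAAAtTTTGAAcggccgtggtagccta
Cenpe, chr3:135212313-135212612, plus strand: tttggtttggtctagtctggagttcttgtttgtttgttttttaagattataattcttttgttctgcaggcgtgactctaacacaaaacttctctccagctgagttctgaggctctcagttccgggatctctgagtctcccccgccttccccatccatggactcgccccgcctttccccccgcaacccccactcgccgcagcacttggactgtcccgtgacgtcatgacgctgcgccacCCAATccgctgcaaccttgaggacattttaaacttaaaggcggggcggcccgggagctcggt
Of the 22 list members with a promoter in the table, 18 (81.8%) held TTTGAA on either strand and 19 (86.4%) held CCAAT, and 17 (77.3%) held both. Of the 10064 tested genes with a promoter, 1197 (11.9%) held TTTGAA, 3808 (37.8%) CCAAT and 471 (4.68%) both. Prc1 held 1 of each, Anln 2 of the first, on opposite strands, and none of the second in this window, and Cenpe 1 CCAAT. These matches describe the letters in the window only.

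The mean of the mitosis list, relative to the 12 lesion arrays, was 0.26, 0.12 and 0.11 in LGD, 0.19, 0.16 and -0.13 in HGD at 6 weeks, 0.35, -0.12 and -0.19 in HGD at 8 weeks and -0.14, -0.18 and -0.44 in carcinoma. Carcinoma lay below LGD in all arrays, and HGD at 8 weeks spanned both. In normal mucosa the mean was -0.23, -0.02 and -0.28, a range that overlapped carcinoma. The mean of 17 general epithelial genes was 0.05 in LGD, 0.11 in HGD at 6 weeks, -0.16 in HGD at 8 weeks and 0.00 in carcinoma, and its part in the mitosis result was not tested. The number of mitosis genes at an unadjusted p under 0.05 was 5 without carcinoma replicate 3, 7 without LGD replicate 1, 22 without HGD 8 weeks replicate 1, 21 without LGD replicate 3 and HGD 8 weeks replicate 1, and 0 with the carcinoma group left out, where the median slope was -0.07. Over all single arrays left out, LGD replicate 2 among them, it lay between 5 and 22, with median slopes of -0.17 to -0.11. LGD replicate 2, the array with signs of shortened RNA, was the highest lesion array for Prc1, Anln, Cenpe and Bub1b. It was not the highest for Ncapg, Ccnf or Mki67.

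**Figure D2:**
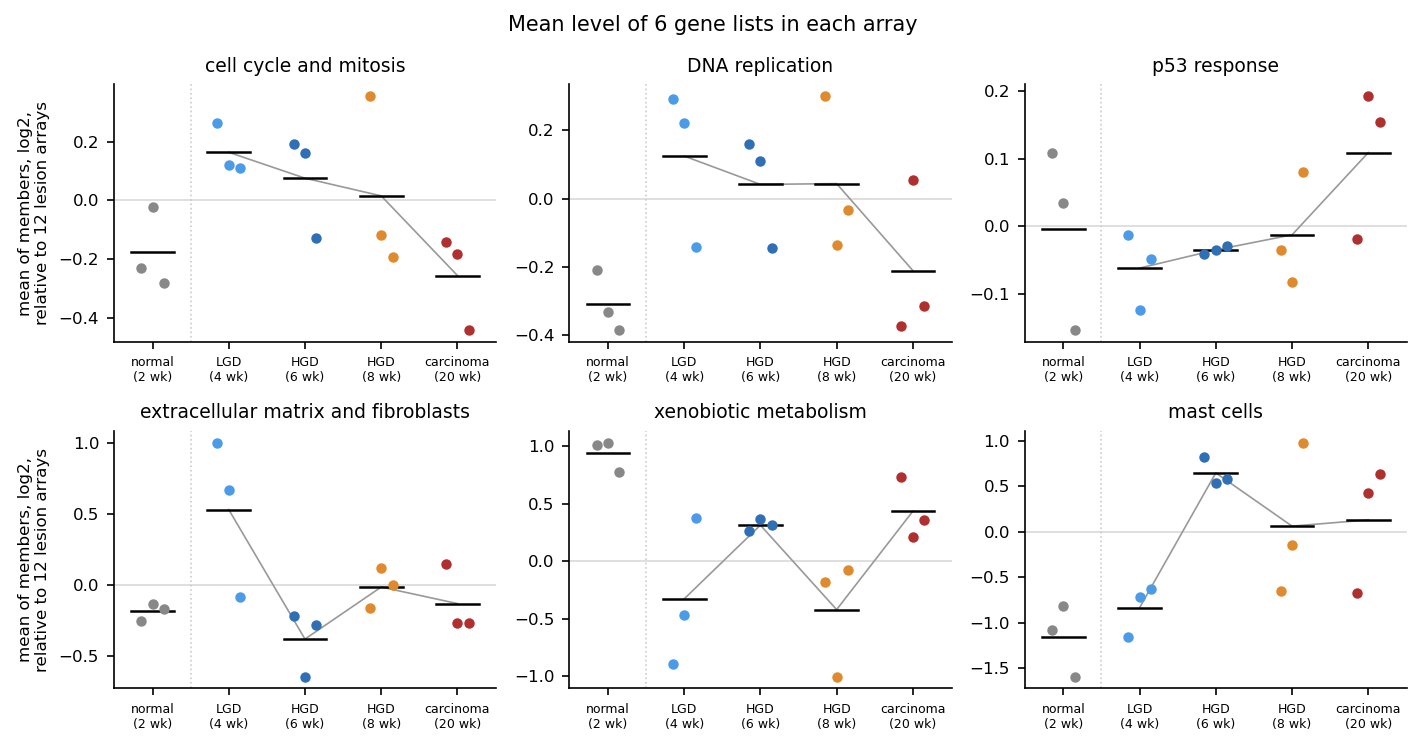
Mean level of the members of 6 lists in each array (log2, relative to the mean of the 12 lesion arrays), with points for arrays, bars for group means and a line through the 4 lesion groups; normal mucosa stands to the left and entered no trend. All 3 carcinoma arrays lie below all 3 LGD arrays for cell cycle and mitosis genes, while the matrix list is highest in LGD replicates 1 and 2 and the group means of the xenobiotic list alternate.

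Genes of DNA replication and of ribosome building went the same way as far as the sign of the slope, with smaller sizes. Of 26 replication genes, 25 had a slope below 0 (median -0.10), 8 had stepwise lower means (5.12% of all genes) and 4 had an unadjusted p under 0.05 (4.53% of all genes). These 4 were Mcm6, a subunit of the replicative helicase (-0.20), Lig1, the ligase that joins new DNA fragments (-0.14), Rfc5, of the clamp loader (-0.13), and Pola1, of the polymerase that starts each strand (-0.10). Mcm6 had 9.57, 9.82 and 9.08 in LGD, 9.43, 9.22 and 9.14 in HGD at 6 weeks, 9.74, 9.06 and 9.18 in HGD at 8 weeks and 8.54, 9.24 and 8.63 in carcinoma, so that carcinoma replicate 2 lay within the LGD range. The count of 4 was 0 without LGD replicate 2 or without carcinoma replicate 1, 1 without LGD replicate 1 or carcinoma replicate 3, 14 without LGD replicate 3, 12 without HGD 8 weeks replicate 1, 11 without carcinoma replicate 2 and 18 without LGD replicate 3 and HGD 8 weeks replicate 1. Of 24 ribosome biogenesis genes, 22 had a slope below 0 (median -0.06), and Rrp12 (-0.17) and Fbl (-0.11), which encodes the RNA methyltransferase fibrillarin, had an unadjusted p under 0.05, a share near that of all genes. That count of 2 was 11 without carcinoma replicate 2, 6 without LGD replicate 1 and 1 without any of LGD replicates 2 and 3, HGD 6 weeks replicate 1 and carcinoma replicates 1 and 3.

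Beyond mitosis, the stepwise lower genes with the smallest p came from several functions. Anxa2, which encodes a calcium-dependent membrane-binding protein, had 13.32, 13.47 and 13.44 in LGD, 13.15, 13.29 and 13.27 in HGD at 6 weeks, 13.18, 13.25 and 13.12 in HGD at 8 weeks and 12.85, 13.08 and 12.81 in carcinoma. Carcinoma lay below all other lesion arrays, and the 2 HGD groups overlapped each other and lay below LGD. Its slope was -0.15 (95% interval -0.21 to -0.10, adjusted p = 0.369), its other probe set had -0.02, and in normal mucosa the level was lower still (12.73 ± 0.31, SD, n = 3). Egfr, the epidermal growth factor receptor gene, had 8.67, 8.81 and 8.88 in LGD, 8.37, 8.12 and 8.26 in HGD at 6 weeks, 8.03, 8.24 and 8.36 in HGD at 8 weeks and 8.31, 7.89 and 8.20 in carcinoma. LGD lay above all later lesions, which overlapped, so most of the slope of -0.20 (95% interval -0.30 to -0.10) came from the step after LGD. Its 2 other probe sets had smaller slopes of -0.09 and -0.02. Snai2, which encodes the transcription factor Slug, had group means of 9.61 ± 0.46, 8.95 ± 0.06, 8.85 ± 0.49 and 8.43 ± 0.15 (SD, n = 3 each). Ifi202b, an interferon-inducible gene of the DNA-sensing family, had 8.80 ± 0.42, 8.40 ± 0.23, 8.23 ± 0.57 and 7.59 ± 0.27, each above normal mucosa at 6.84 ± 0.34 (SD, n = 3 each). Phlda2, an imprinted gene, had 7.92 ± 0.13, 7.43 ± 0.27, 7.34 ± 0.08 and 7.12 ± 0.37, with normal mucosa at 6.97 ± 0.08.

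Rps4l, a ribosomal protein S4-like gene, had the lowest slope of the stepwise genes taken by the rule. It had 6.79, 6.84 and 7.40 in LGD, 7.63, 6.64 and 5.53 in HGD at 6 weeks, 6.39, 6.28 and 6.36 in HGD at 8 weeks and 5.17, 5.12 and 4.99 in carcinoma. The 3 carcinoma arrays lay close together below all others, at dim levels that did not reach the table median, and HGD at 6 weeks spread over the range of the 3 dysplasia groups. The slope was -0.60 (95% interval -0.88 to -0.32, adjusted p = 0.535), and carcinoma was 3.78-fold lower than LGD on the scale of log2(signal + 16), which understates folds of dim genes. Tmem268, a transmembrane protein gene, Fam207a and Dynll1, a dynein light chain gene, had slopes of -0.27, -0.18 and -0.12. A second Tmem268 probe set gave -0.05. Hypoxia and glycolysis genes had 19 of 21 slopes below 0, a median of -0.09, 6 stepwise lower and 5 at an unadjusted p under 0.05, among them the glycolytic Pfkp (-0.21, with -0.15 and -0.0023 for its 2 other probe sets) and the hypoxia-induced Ankrd37 (-0.27). Over all genes 56.4% of slopes were below 0, 5.12% were stepwise lower and 4.53% had such a p downward. The count of 5 lay between 1 and 7 over single arrays left out and was 1 without LGD replicate 2.

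**Figure D3:**
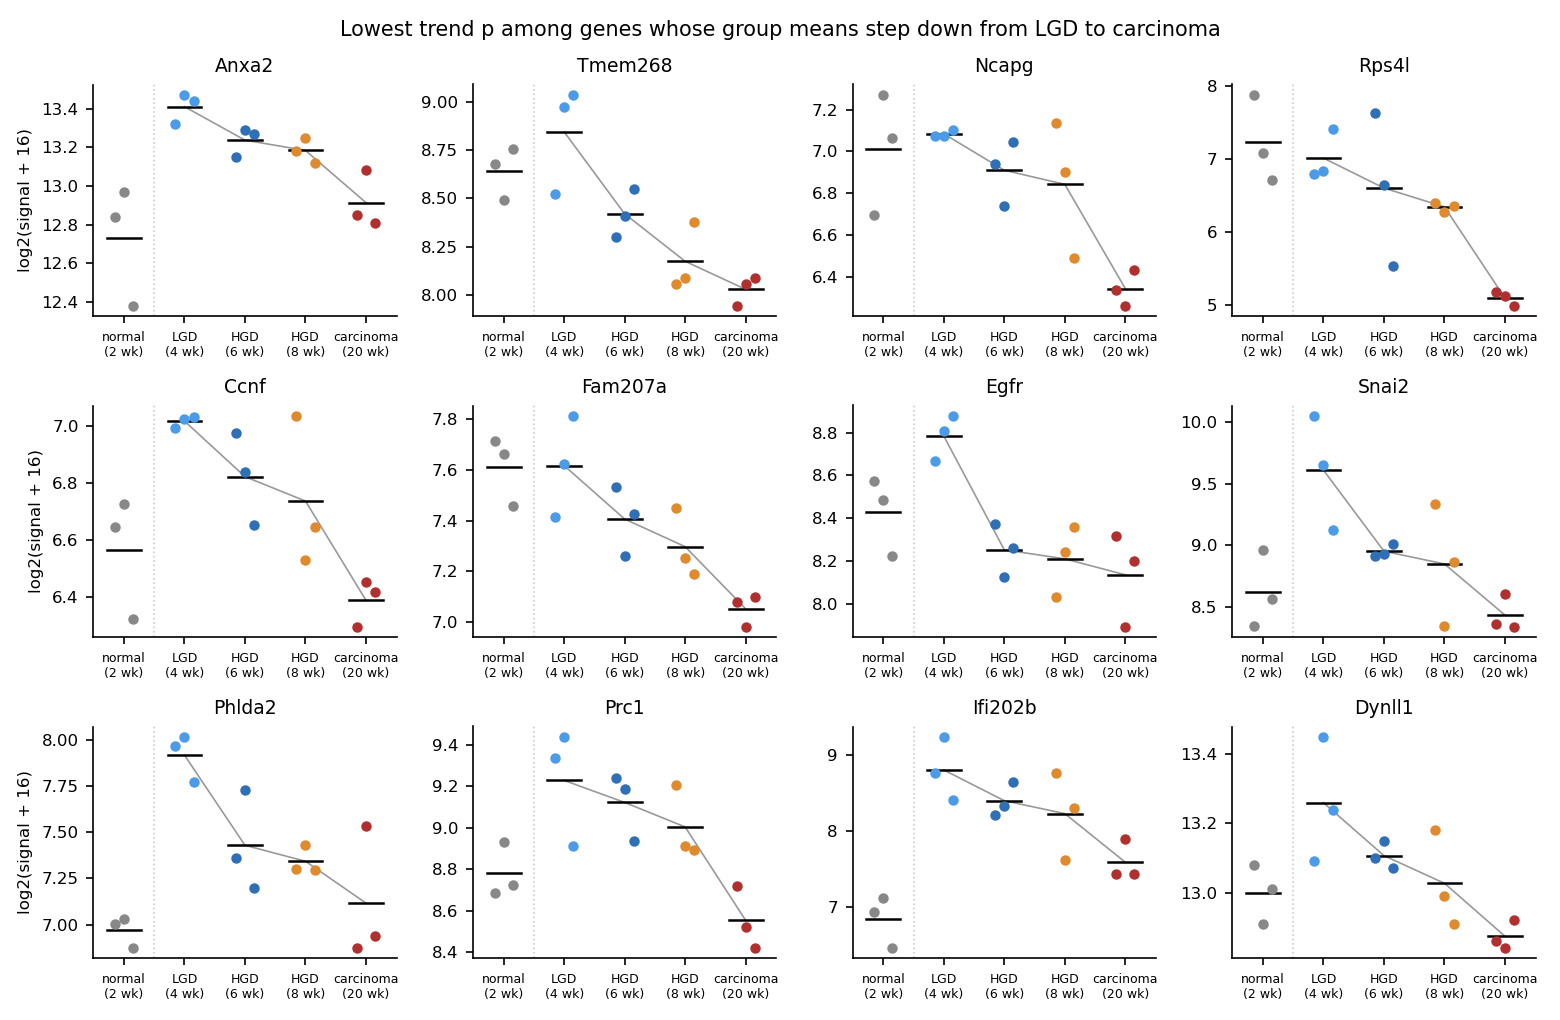
Level of the 12 stepwise lower genes taken by the rule, as log2(signal + 16) in each array, with bars for group means and a line through the lesion groups in rank order; normal mucosa stands to the left. In Rps4l the carcinoma arrays lie between 4.99 and 5.17, below every other array, and in Egfr the largest step follows LGD.

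Fewer genes had stepwise higher means, among them 3 of 18 measured p53 response genes, against 3.13% of all genes. Of these 18, 12 had a slope above 0 (median 0.05), against 43.6% of all genes. An unadjusted p under 0.05 was seen in 4, all higher, where 2.38% of all genes had one in that direction. Ccng1, which encodes cyclin G1, a direct p53 target, had 10.09, 9.94 and 10.13 in LGD, 10.10, 10.22 and 10.21 in HGD at 6 weeks, 10.43, 10.07 and 10.23 in HGD at 8 weeks and 10.60, 10.64 and 10.59 in carcinoma. Carcinoma lay above all other lesion arrays and above normal mucosa (10.44, 10.27 and 10.33). The slope was 0.17 (95% interval 0.10 to 0.25, adjusted p = 0.46), and the 2 other probe sets had 0.13 and 0.16. Trp53inp1, a p53-induced nuclear protein gene, had means of 11.45 ± 0.25, 11.60 ± 0.12, 11.68 ± 0.12 and 11.97 ± 0.21, and Zmat3, an RNA-binding p53 target, 7.77 ± 0.15, 7.84 ± 0.25, 8.01 ± 0.55 and 8.39 ± 0.14 (SD, n = 3 each). Eda2r, a receptor gene induced by p53, had 5.85, 5.66 and 5.74 in LGD, 5.62, 5.81 and 5.76 in HGD at 6 weeks, 5.51, 6.32 and 6.31 in HGD at 8 weeks and 5.93, 7.24 and 6.83 in carcinoma. The early groups were flat and the later groups spread, and its means were not stepwise. Only arrays of HGD at 8 weeks and carcinoma exceeded the signal level that testing required in 3 lesion arrays, so the p of Eda2r lends no support. The count of 4 includes Eda2r. Btg2, also p53-induced and an early response gene, had the lowest slope of the list at -0.20, so the members did not share 1 direction. With the carcinoma group left out the median was 0.03 and the count of 4 was 0, while single arrays left out gave 3 to 5.

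The other stepwise higher genes taken by the rule were of mixed function. Zfp119b, a zinc finger gene, had 5.78, 5.67 and 5.49 in LGD, 6.07, 6.15 and 5.98 in HGD at 6 weeks, 6.01, 6.29 and 5.95 in HGD at 8 weeks and 6.34, 6.29 and 6.34 in carcinoma. LGD lay below all later lesions and carcinoma lay at the top of the HGD range, with a slope of 0.21 (95% interval 0.13 to 0.28, adjusted p = 0.369). To be tested, a probe set had to exceed a set signal level in 3 lesion arrays. Outside carcinoma only HGD 8 weeks replicate 2 exceeded it, so Zfp119b entered the test through its carcinoma arrays and its p lends no support. Cirbp, the cold-inducible RNA-binding protein gene, had 7.68, 7.22 and 6.84 in LGD, 7.68, 8.05 and 7.44 in HGD at 6 weeks, 6.96, 8.47 and 8.33 in HGD at 8 weeks and 8.65, 8.89 and 8.52 in carcinoma. Carcinoma lay above all the other lesions and was 2.71-fold above LGD (slope 0.45, 95% interval 0.19 to 0.71). Npy, which encodes neuropeptide Y, a transmitter of sympathetic and enteric nerves, had 6.96, 7.06 and 6.68 in LGD, 7.31, 6.54 and 6.87 in HGD at 6 weeks, 6.40, 7.84 and 7.81 in HGD at 8 weeks and 7.59, 8.41 and 8.35 in carcinoma. Its first 2 groups had nearly the same mean and the last 2 overlapped (slope 0.41, 95% interval 0.15 to 0.67). In both genes HGD 8 weeks replicate 1 lay far below the other arrays of its group. Of 11 enteric neuron and glia markers, 0 had an unadjusted p under 0.05 upward, with a median slope of -0.03. Ephx1, an epoxide hydrolase of xenobiotic metabolism, had a slope of 0.23, Sesn3, a sestrin gene, 0.16, Mff, a mitochondrial fission factor, 0.12, and Tasor2 0.14. Tatdn3 had 0.16, Vcpip1, a deubiquitinase gene, 0.18 and Derl1, of the pathway that removes misfolded proteins from the endoplasmic reticulum, 0.12. Second probe sets gave smaller slopes for Mff (0.01), Sesn3 (0.07) and Trp53inp1 (0.09). For Vcpip1 the other probe set had -0.08, and for Derl1 2 of 3 others had slopes below 0 (-0.08 and -0.03).

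**Figure D4:**
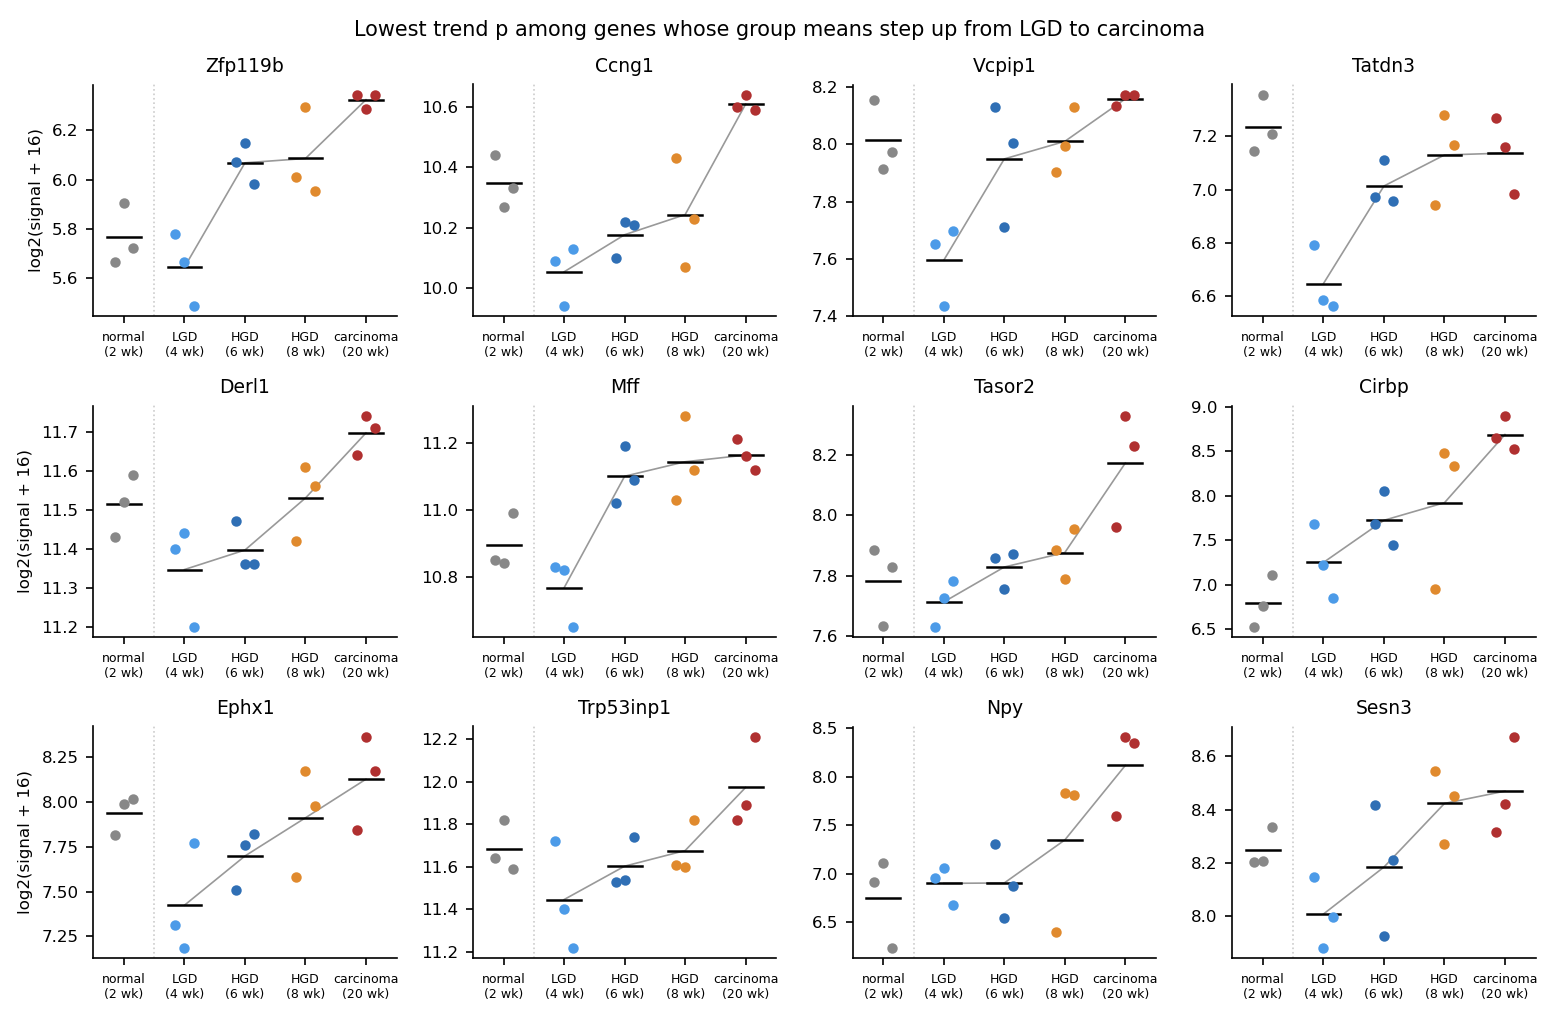
Level of the 12 stepwise higher genes taken by the rule, as log2(signal + 16) in each array, with bars for group means and a line through the lesion groups in rank order; normal mucosa stands to the left. The 3 Ccng1 values of carcinoma (10.59 to 10.64) lie above every other array shown, and Cirbp and Npy spread widely in HGD at 8 weeks.

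The 3 smallest trend p-values belonged to Apob, Sox17 and Rbm14, whose means were not stepwise; Apob was also taken by the rule for dips, and the others in this paragraph were named after their values were seen. Sox17, which encodes a transcription factor of endoderm and endothelium that opposes Wnt signalling, had 7.20, 6.93 and 6.74 in LGD, 8.28, 8.35 and 7.67 in HGD at 6 weeks, 7.09, 8.08 and 7.91 in HGD at 8 weeks and 8.90, 10.53 and 9.92 in carcinoma. Carcinoma lay above all other lesions and LGD overlapped normal mucosa (6.90 ± 0.12, SD, n = 3). Its slope was 0.81 (95% interval 0.54 to 1.08, adjusted p = 0.297), its other probe set had 0.39, and carcinoma was 7.11-fold above LGD. Of the 16 other endothelial markers, Angpt2 alone had a slope above 0, and Flt1 (-0.10, with 0.00 for its second probe set) and Robo4 (-0.12) had an unadjusted p under 0.05 downward. In the fit with all 18 arrays Sox17 passed (adjusted p = 0.0277). Apob, which encodes the apolipoprotein of lipoprotein particles made in liver and gut, had 5.19, 5.02 and 5.87 in LGD, 5.60, 6.00 and 5.91 in HGD at 6 weeks, 5.64, 4.93 and 5.39 in HGD at 8 weeks and 7.93, 7.33 and 7.24 in carcinoma. Every dysplasia array lay below the level that a probe set had to exceed in 3 lesion arrays to be tested, so the gene entered the test through its 3 carcinoma arrays alone, its p lends no support, and no fold is given. With carcinoma left out the slope was -0.02. Normal mucosa replicate 2 had 7.51, within the carcinoma range, and the other 2 had 5.74 and 5.32. Pdcd4, a translation inhibitor and tumour suppressor gene, had means of 10.92 ± 0.22, 11.37 ± 0.09, 11.05 ± 0.13 and 11.83 ± 0.22, against 11.87 ± 0.16 in normal mucosa (SD, n = 3 each). Acpp, an acid phosphatase gene, had 6.78 ± 0.19, 7.76 ± 0.17, 7.46 ± 0.56 and 8.25 ± 0.25, against 8.13 ± 0.17 in normal mucosa, so carcinoma lay at the normal level and LGD below it in both genes. Irx4, a homeobox gene, had 5.35 ± 0.09, 5.97 ± 0.31, 5.69 ± 0.31 and 6.95 ± 0.61, with normal mucosa at 5.35 ± 0.11. Outside carcinoma only HGD 6 weeks replicate 2 exceeded the level for testing in Irx4, so its p lends no support either. Rbm14, an RNA-binding coactivator gene, had 8.78, 8.79 and 8.84 in carcinoma, against 9.39, 9.87 and 9.64 in LGD, with the HGD groups at 9.32 to 9.54, overlapping LGD.

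Stromal genes as a list had a slope below 0 that came from LGD, where replicates 1 and 2 were high. Of 27 extracellular matrix and fibroblast genes, 26 had a slope below 0 (median -0.17) and 10 an unadjusted p under 0.05, but 0 were stepwise lower. Over all genes these shares were 56.4%, 4.53% and 5.12%. The median step from LGD to HGD at 6 weeks was -0.90, followed by 0.29 and -0.10, and with the LGD group left out the median slope was 0.13. Col4a1, a collagen of basement membranes, had 12.03, 11.90 and 11.05 in LGD, 10.78, 10.20 and 10.51 in HGD at 6 weeks, 10.90, 11.20 and 10.88 in HGD at 8 weeks and 10.97, 10.83 and 10.49 in carcinoma. LGD replicates 1 and 2 stood above all other lesion arrays, and replicate 3 lay within the range of HGD at 8 weeks. Col6a3, of microfibrillar collagen, and Pdgfra, a receptor of fibroblasts, had slopes of -0.29 and -0.13, which were 0.09 for each with LGD left out, and other Pdgfra probe sets had -0.06 to 0.03. Not every member changed sign, as the slope of the collagen gene Col3a1 stayed below 0 with LGD left out. The list mean was 1.00, 0.67 and -0.08 in the LGD arrays. Its count of 10 was 17 without LGD replicate 3, 5 without LGD replicate 1, 3 without LGD replicate 2 or carcinoma replicate 2, 1 without carcinoma replicate 3 and 18 without LGD replicate 3 and HGD 8 weeks replicate 1. Neutrophil genes had 13 of 13 slopes below 0 (median -0.20) and 0 with an unadjusted p under 0.05. Their list mean in LGD was 2.95, 0.19 and -1.08, and the median slope was 0.05 without LGD replicate 1, -0.62 with 5 genes at that level without LGD replicate 3, and -0.67 with 6 such genes without LGD replicate 3 and HGD 8 weeks replicate 1. S100a9, a subunit of calprotectin, had 8.18, 11.78 and 10.20 in carcinoma, against 14.38, 10.83 and 8.04 in LGD, so its arrays differed more within a group than the group means did. Among 18 macrophage and monocyte genes, Cd163, a scavenger receptor gene, was the one with an unadjusted p under 0.05 (slope -0.32). That count was 4 without LGD replicate 3, 7 without LGD replicate 3 and HGD 8 weeks replicate 1, 2 without LGD replicate 2 or HGD 8 weeks replicate 1, and 0 without LGD replicate 1 or carcinoma replicate 2 or 3. The LGD arrays of Cd163 (7.04, 7.03 and 6.71) lay above HGD at 6 and 8 weeks (5.29 to 6.39) and overlapped carcinoma (6.93, 5.79 and 5.19).

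Mast cell genes showed the opposite arrangement, with their lowest group mean in LGD and higher means afterwards. Of 12, 11 had a slope above 0 (median 0.24) and 3 an unadjusted p under 0.05, and the median step from LGD to HGD at 6 weeks was 1.34. Over all genes 43.6% of slopes were above 0, and 2.38% of genes had such a p in that direction. Tpsab1, a tryptase gene, had 5.36, 5.61 and 6.12 in LGD, 6.44, 7.13 and 7.53 in HGD at 6 weeks, 6.84, 7.58 and 7.93 in HGD at 8 weeks and 6.71, 6.30 and 7.42 in carcinoma. LGD lay below all the later lesions, which overlapped, and with LGD left out the slope was -0.11. Ms4a2, a chain of the IgE receptor, had 5.27, 5.42 and 5.22 in LGD, 6.52, 6.78 and 6.64 in HGD at 6 weeks, 5.13, 8.92 and 7.32 in HGD at 8 weeks and 5.99, 7.16 and 7.61 in carcinoma. HGD 8 weeks replicate 1 lay at the LGD level. Every LGD array of Tpsab1 and Ms4a2 lay below the signal level that testing required in 3 lesion arrays. Both genes therefore entered the test through the later groups, where they were high, and their p lends no support. The count of 3 includes both. The count of 3 was 5 without HGD 8 weeks replicate 1, and 1 without LGD replicate 2 or carcinoma replicate 3.

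Genes of drug and xenobiotic metabolism alternated over the series. Of 23, 21 had a slope above 0 (median 0.16), against 43.6% of all genes, and 4 an unadjusted p under 0.05, against 2.38%. The median steps, however, were 0.67, -0.70 and 0.71. The list mean was -0.89, -0.47 and 0.38 in LGD, 0.26, 0.37 and 0.31 in HGD at 6 weeks, -0.18, -1.01 and -0.08 in HGD at 8 weeks and 0.74, 0.21 and 0.36 in carcinoma. All lesion arrays lay below normal mucosa (1.02, 1.03 and 0.78). Cyp3a13, a cytochrome P450 gene, had the highest slope (0.49, 95% interval 0.05 to 0.94), and Ces1d, a carboxylesterase gene (0.24, with 0.09 for its second probe set), was stepwise with means that ended below normal mucosa. Ces1d had 7.15, 7.02 and 7.19 in carcinoma, against 8.09, 8.12 and 8.25 in normal mucosa. With the LGD group left out the median slope of the list was 0.01. Its count of 4 was 13 without LGD replicate 3, 9 without LGD replicate 3 and HGD 8 weeks replicate 1, and 1 without LGD replicate 1, LGD replicate 2 or carcinoma replicate 1. The median steps also alternated for mature colonocyte genes, at 0.49, -0.84 and 0.57 over 26 genes, and for 20 goblet cell genes, at 0.27, -0.61 and 0.79. Arrays of a group differed widely, however. The colonocyte list mean was -1.15, -0.37 and 0.86 in LGD and 0.24, -1.66 and -0.28 in HGD at 8 weeks. The goblet list mean was -0.70, -0.53 and 0.75 in LGD and -0.71, -0.38 and -0.32 in HGD at 8 weeks. Slc9a3, the sodium and proton exchanger of absorptive cells, was the one colonocyte gene with an unadjusted p under 0.05 (slope 0.45), and its second probe set had 0.04. Without LGD replicate 3 there were 5 such colonocyte genes (median slope 0.18) and 6 such goblet cell genes, against 0 over all arrays (median slope 0.15, against 0.06). The mucin gene Muc2 had means of 12.88, 13.08, 12.64 and 13.52, and the carbonic anhydrase gene Car4 had 11.86, 5.53 and 9.81 in HGD at 8 weeks and 6.54, 8.53 and 12.30 in LGD, a spread that took in all other lesion arrays.

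The departure test asks which genes deviate from a line over the 4 ranks, as they would with a peak or dip at 8 weeks, the group taken 2 days after DSS. It called 0 genes with limma (0.0%, smallest adjusted p 0.552), and 659 (5.27%) had an unadjusted p under 0.05, which was 1277 without HGD 8 weeks replicate 1, 1058 without LGD replicate 3, 434 without HGD 6 weeks replicate 2 and 1904 without LGD replicate 3 and HGD 8 weeks replicate 1. That count was 551 without LGD replicate 2 and 555 without HGD 8 weeks replicate 2. The rule named 5 genes with their highest and 5 with their lowest mean in HGD at 8 weeks. Fxyd4, a modulator of the sodium pump, had 9.63, 10.16 and 9.38 in LGD, 9.28, 9.28 and 9.29 in HGD at 6 weeks, 10.22, 10.45 and 10.08 in HGD at 8 weeks and 8.26, 8.64 and 8.77 in carcinoma. HGD at 8 weeks lay 1.06 above the mean of the other 3 groups, with LGD replicate 2 inside its range. Alas2, the haem synthesis enzyme of red cell precursors, had 7.06, 7.74 and 6.49 in HGD at 8 weeks and 5.26 to 6.25 in the other lesions, and the globin gene Hbb-b2 had 7.04, 6.94 and 6.99 against 6.19 to 6.91. Outside HGD at 8 weeks only LGD replicate 1 exceeded the level for testing in Alas2, so its p lends no support. Alas2 was the one measured erythroid marker of the list, and the part of blood in these samples was not tested. Lmo2, a transcription factor gene of blood and vessel lineages, had 9.07, 9.82 and 9.08 in HGD at 8 weeks and 8.05 to 8.91 in the other lesions, and Rsph3a lay 0.45 above the other groups. In the other direction, Otc, a urea cycle enzyme that the gut also makes, had 5.10, 5.29 and 5.35 in HGD at 8 weeks, against 6.92 to 7.34 in HGD at 6 weeks and 6.96 to 8.19 in carcinoma. LGD spanned 5.13 to 7.56 and overlapped it. Cyp2c68, a cytochrome P450 gene, had 6.49, 5.79 and 6.96 in HGD at 8 weeks, against 8.32 to 8.37 in HGD at 6 weeks and 7.49 to 8.97 in carcinoma, and its LGD arrays (6.01, 6.56 and 7.62) overlapped HGD at 8 weeks. Sgms2, a sphingomyelin synthase gene, lay 0.85 below the other groups in HGD at 8 weeks and Ciart, a circadian repressor gene, 0.45 below, and Apob 0.91 below because of its high carcinoma level.

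**Figure D5:**
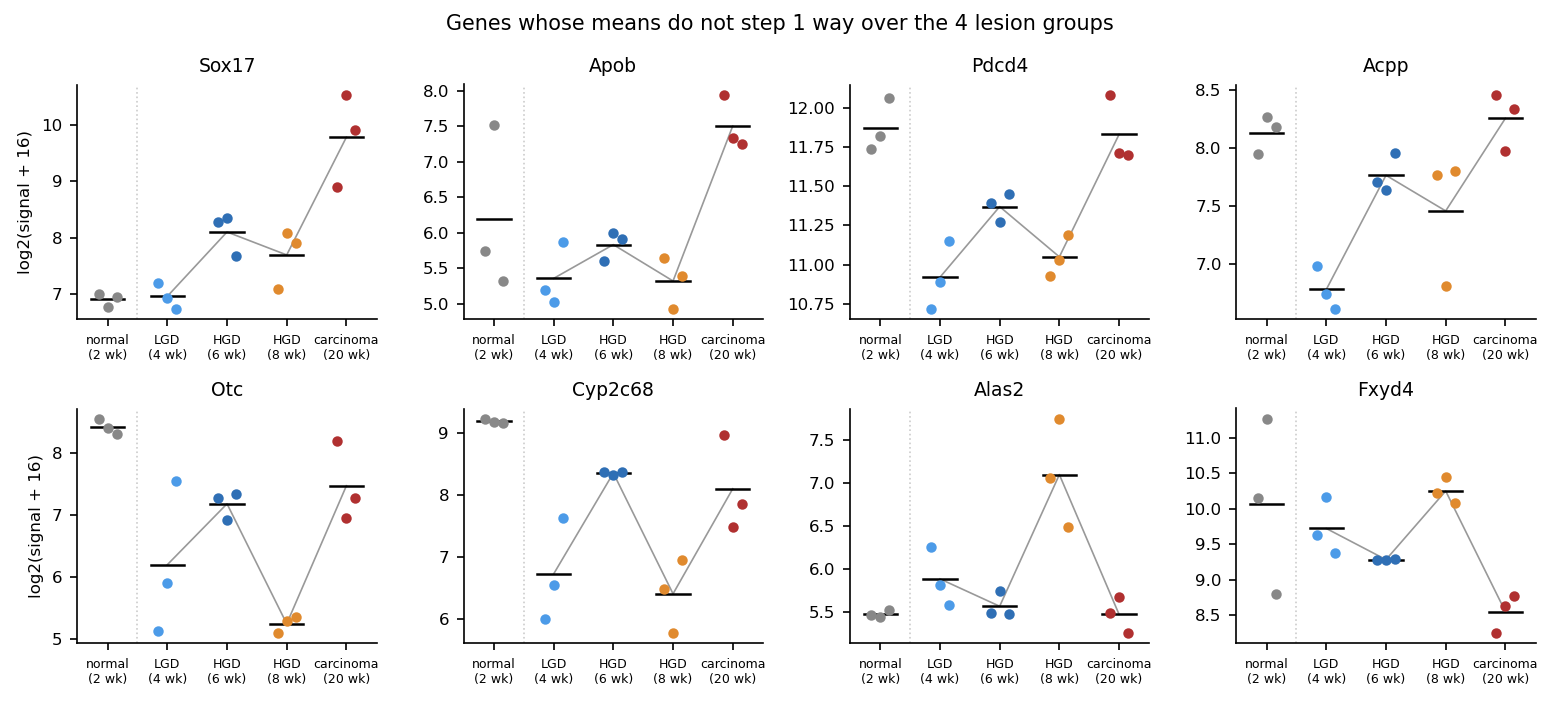
Level of 8 genes whose means are not stepwise, as log2(signal + 16) in each array, with bars for group means and a line through the lesion groups; normal mucosa stands to the left. Among the lesion arrays Sox17 and Apob are highest in the 3 carcinoma arrays, with 1 normal array within the Apob range of carcinoma, Otc and Cyp2c68 dip and Alas2 peaks in HGD at 8 weeks.

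As lists, Wnt targets and crypt stem cell genes had no ordered pattern with rank. Of 23 Wnt/beta-catenin targets, 16 had a slope above 0 (median 0.06) and 0 an unadjusted p under 0.05, and of 15 stem and progenitor genes 6 were above 0, 4 genes being on both lists. Prom1 (slope -0.13) was the only stem and progenitor gene with an unadjusted p under 0.05, where 4.53% of all genes had one downward. Stepwise lower means were seen in 2 of the 15, against 5.12% of all genes. Axin2, a feedback inhibitor and standard readout of the pathway, had 9.99, 10.00 and 8.10 in LGD, 10.12, 9.83 and 9.73 in HGD at 6 weeks, 7.45, 11.12 and 10.36 in HGD at 8 weeks and 9.18, 10.17 and 9.63 in carcinoma. HGD 8 weeks replicate 1 lay below normal mucosa (7.85, 7.86 and 7.72), LGD replicate 3 had 8.10, close to it, and the other lesion arrays were at 9.18 to 11.12. The slope of 0.06 (95% interval -0.51 to 0.64) was -0.02 without those 2 arrays. Lgr5, the crypt stem cell receptor, had 9.61, 8.48 and 6.54 in LGD, 8.36, 8.20 and 7.71 in HGD at 6 weeks, 5.55, 10.16 and 9.30 in HGD at 8 weeks and 7.07, 8.01 and 7.80 in carcinoma. Its slope was -0.15 (95% interval -0.89 to 0.59). Myc, the growth-promoting transcription factor and Wnt target, had group means of 7.98 to 8.22 and a slope of 0.05 (95% interval -0.09 to 0.20), against 7.56 ± 0.18 in normal mucosa (SD, n = 3). Ptgs2, the inducible prostaglandin synthase, ranged from 5.32 to 9.26 within HGD at 8 weeks alone (slope -0.24, SE 0.34). Without LGD replicate 3 the median slope of the Wnt list was -0.08 and 2 members had an unadjusted p under 0.05, and without HGD 8 weeks replicate 1 these were 0.17 and 3.

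Most immune lists had no ordered pattern either. T and NK cell genes had a median slope of -0.01 over 14 genes, B and plasma cell genes 0.08 over 15, of which 14 were above 0, and class II presentation genes 0.06 over 10. The interferon response had 19 of 22 slopes below 0 (median -0.08) with median steps of 0.26, -0.54 and 0.26, and cytokines and chemokines had a median of -0.05 over 19. In all 5 of these lists 0 genes had an unadjusted p under 0.05, and up to 2 did with a single array left out. Without LGD replicate 3 the median of the interferon list was 0.06. Oxidative phosphorylation (25 genes, median 0.01) and endoplasmic reticulum folding genes (21 genes, median 0.00) likewise had 0, and up to 2 with a single array left out. The defining markers of pancreatic tissue were measured for 3 genes, with slopes from -0.01 to 0.15, and 6 adipocyte genes had 1 with an unadjusted p under 0.05, the carbonic anhydrase gene Car3 (0.72, 95% interval 0.04 to 1.41, with 0.26 for its second probe set). That count was 0 or 2 whichever single array was left out.

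For most stepwise genes the level of normal mucosa lay between those of carcinoma and LGD. Of the 175 stepwise lower genes with an unadjusted p under 0.05, the normal mean lay between those of carcinoma and LGD for 104 (59.4%), below carcinoma for 47 (26.9%) and above LGD for 24 (13.7%). Of the 95 stepwise higher genes it lay between for 52 (54.7%), above carcinoma for 22 and below LGD for 21. Over all 12511 genes it lay between for 23.7%. The stepwise genes were selected for a gap between carcinoma and LGD, which widens the space between, so these shares are a description with no test.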

How the data were processed

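Gene expression was measured in colorectal tissue on Affymetrix whole-genome mouse arrays. The deposited table holds a linear signal intensity for each probe set, and the submitters' processing notes name MAS5 without its settings. No further scaling was applied. Of 45101 probe sets, 34945 were paired with 1 gene by the platform annotation, 932 with several genes and 9160 with none, and 64 were controls; only those with 1 gene were tested. Probe sets above the table median of 56.5 in at least 3 of the 12 lesion arrays were kept, and the one with the highest mean stood for its gene, which left 12511 genes, 1458 of them on probe sets that may bind related transcripts.

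Signals were taken to log2 after adding 16. limma 3.58.1 in R 4.3.3 fitted 4 group means to the 12 arrays (8 residual degrees of freedom, prior 2.44, intensity trend). The slope per rank step is the linear contrast, the departure test an F test of the quadratic and cubic contrasts, and the carcinoma against LGD contrast came from the same fit. Tests were 2-sided, with Benjamini-Hochberg adjustment over the whole table. The model was tested on simulated data. The labels call the 3 arrays of each group biological replicates without naming the animals, and their number limits the precision of every value.

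The genes and the 40 lists were chosen with earlier results of these data known. The rule names up to 12 called genes with stepwise means in each direction, filled up by the smallest p, 5 genes with a peak and 5 with a dip at 8 weeks by the departure p, called members of the lists, and Axin2, Lgr5, Myc, Mki67, Ptgs2, Muc2, Car4 and S100a9. As no gene was called, the stepwise genes named did not pass, and list members given by name were chosen after their values were seen. Predicted genes were passed over. Promoters are from RefSeq (GRCm38.p6), and motifs were searched on both strands.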

Additional observations from a re-analysis of the deposited data

How the results depend on the processing

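The trend called 0 genes under the other pseudocounts, filters, quantile normalization and probe set rule, and whichever single array was left out. With grade as the score, the same for both HGD groups, it also called 0. There were then 441 genes higher and 791 lower at an unadjusted p under 0.05, the same as for carcinoma against LGD. The trend called 1 gene with all 18 arrays in the fit (Sox17), 1 with weeks as scores (Apob), 1 with HGD at 6 weeks left out (Rps4l) and 5 with HGD at 8 weeks left out (Bpifb5, Pm20d1, Acpp, Hdac11 and Apob). Apob entered the test through its carcinoma arrays alone, so its calls lend no support. Array quality weights called 21, but the weights did not settle and gave HGD 8 weeks replicate 3 a weight of 58.2, far above the rest. Stepwise genes among the calls were 1 and 5 with the same HGD groups left out, where only 3 means had to be in order, and 10 with weights. The departure test called 1785 with weights. Carcinoma against LGD called 1 gene at a pseudocount of 64, 6 with 18 arrays, 15 with weights, 1 without LGD replicate 3 and HGD 8 weeks replicate 1 (added after seeing the data), and 0 to 2 with single arrays left out: 1 without LGD replicate 3 or carcinoma replicate 1, and 2 without HGD 8 weeks replicate 2. Of the list members, 1 was called with 18 arrays and 4 with weights. Deviations from the group mean correlated at -0.405 to 0.33 between same-numbered arrays. With 3 arrays per group this cannot show whether the numbers pair samples, which the labels do not say. A replicate block gave 0 calls for the trend, with 260 genes higher and 561 lower at an unadjusted p under 0.05. Against 865 such genes in the analysis as reported, there were 1551 over 20835 probe sets taken one by one, 2440 with weights, 1470 with HGD at 8 weeks left out, 540 with LGD left out and 422 with carcinoma left out.

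No named slope was called, and these changed sign; the cause was not tested. Other probe sets gave -0.08 for Vcpip1, -0.0755 and -0.0289 for Derl1 and 0.0273 for Pdgfra. With LGD left out the slope was -0.116 for Axin2, -0.0301 for Myc, -0.0542 for Car4, 0.00401 for Cd163, -0.112 for Tpsab1, 0.0049 for P4ha1, 0.0903 for Pdgfra, 0.133 for Col4a1 and 0.0942 for Col6a3. With carcinoma left out it was -0.0183 for Apob, 0.0638 for Lgr5, -0.12 for Muc2, -0.0294 for Car4 and 0.108 for S100a9. Without LGD replicate 3 and HGD 8 weeks replicate 1 it was -0.0163 for Axin2. Over single arrays left out it ran from -0.126 to 0.173 for Axin2, -0.401 to 0.0605 for Lgr5, -0.025 to 0.115 for Myc, -0.422 to 0.0465 for Ptgs2 and -0.653 to 0.298 for S100a9.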

Other observations

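Inflamed mucosa at 2 weeks entered no trend and lay outside the lesion range for several lists. The mitosis list mean was -1.17 to -1.04 in its 3 arrays, relative to the lesion arrays, below every lesion array (lowest -0.44). The general epithelial mean was -4.62 to -1.30 in the same arrays, also below every lesion array (lowest -0.32). Its part in the low mitosis mean was not tested. The matrix and fibroblast mean was 1.04 to 1.95, above every lesion array, of which LGD replicate 1 was the highest at 1.00. The neutrophil mean was 1.79 to 3.27, a range that took in LGD replicate 1 (2.95) and no other lesion array. Defensin and Paneth cell genes, which the healthy mouse colon scarcely makes, had 5 measured members, all with a slope above 0 (median 0.33) and none with an unadjusted p under 0.05. Their mean was -0.74 ± 1.07 in LGD, 0.39 ± 0.22 in HGD at 6 weeks, 0.00 ± 1.78 in HGD at 8 weeks and 0.36 ± 0.41 in carcinoma (SD, n = 3 each), against -2.57 ± 0.52 in normal mucosa. Within these groups LGD replicate 3 (-1.98) and HGD 8 weeks replicate 1 (-2.04) were the lowest, the arrays whose Wnt targets lay near the normal level, and Mmp7 is on the Wnt target list as well.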
